A study of Mus musculus with 6 samples.

Results

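Macrophage and myeloid cell genes were followed in RNA from sorted quiescent muscle stem cells (qMuSCs). The set is a list of 34 genes that mark macrophages and other myeloid cells, taken by gene name from the 31053 genes counted, and all 34 were found. The rule uses gene names and no expression value, although results of these data were known when the list was drawn up. Pax7-GFP+ cells were isolated from hindlimb muscle of resting mice aged 3 to 4 months. All 6 mice carried the Pax7nGFP/+ reporter, which makes Pax7-expressing cells fluoresce, and floxed alleles of Dio2 (Dio2Fl/Fl), the gene of the type 2 deiodinase that activates thyroid hormone, and all were treated with tamoxifen. The 3 cD2KO mice (fl125, fl126 and fl128) were Pax7nGFP/+;Pax7-CreERT2/+;Dio2Fl/Fl, so that tamoxifen activates Cre in cells that express Pax7, and the 3 WT mice (c124, c129 and c130) were Pax7nGFP/+;Pax7+/+;Dio2Fl/Fl, without Cre. Cre was thus present in 1 group alone, and it is driven by Pax7, which macrophages are not known to express. A step to deplete leukocytes before or during the sort is not given in the sources used here.

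Total counts ran from 2184073 in fl125 to 3897787 in c124, and 3 counts, taken here as the level under which a value is not told apart from 0 by counting error alone, stood for 0.768 to 1.36 counts per 1000000 (CPM). Dio2 had 21, 5 and 10 counts in c124, c129 and c130, and 15, 5 and 1 counts in fl125, fl126 and fl128. Per 1000000 counts its level was 5.38, 1.85 and 3.46 CPM in WT and 6.79, 1.71 and 0.31 CPM in cD2KO, so that fl125, labelled cD2KO, had the highest Dio2 level of the 6 libraries, on few counts. These counts cover the whole gene, not the floxed part, and so do not check the genotype, and fl125 stands below for the library labelled fl125. That library lay apart from the other 5 on the first principal component, at 72.6 against 7.52 for the next highest, and the calls are given with it and without it. Muscle stem cell markers were present in all 6 libraries, with Pax7 at 573 counts or more in each. The myeloid genes described here made up 1.17% of the counts of c129 and under 1% of those of the other libraries.

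Macrophages live between the fibers of resting muscle, where they take up debris, present antigen and exchange signals with muscle stem cells. Their identity is set by the transcription factor PU.1, the product of Spi1, and their survival by the receptor of colony-stimulating factor 1, the product of Csf1r. Tissue macrophages also make the C1q chains of complement, receptors for dead cells, modified lipids and antibodies, and a full set of lysosomal enzymes. The C1q chains, Csf1r, Spi1 and Ptprc are not known as products of muscle stem cells. In a bulk library fewer macrophages and less RNA per macrophage cannot be told apart.

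All 3 cD2KO libraries held less RNA of the 34 listed genes than any WT library, and fl125 held almost none of it. Summed over the 34 genes, the level was 5831, 11277 and 7354 CPM in c124, c129 and c130, the WT mice. It was 2907 CPM in fl126 and 3254 CPM in fl128, or 35.7% and 39.9% of the WT mean of 8154 ± 2810 CPM (SD, n = 3 mice). In fl125 it was 313 CPM, or 3.84% of the WT mean. The groups did not overlap, and the gap between fl125 and the other cD2KO mice was wider, as a ratio, than that between those mice and WT. Taken gene by gene, the median member stood at 32.8% of its WT mean in fl126, 33.2% in fl128 and 2.93% in fl125.

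**Figure D1:**
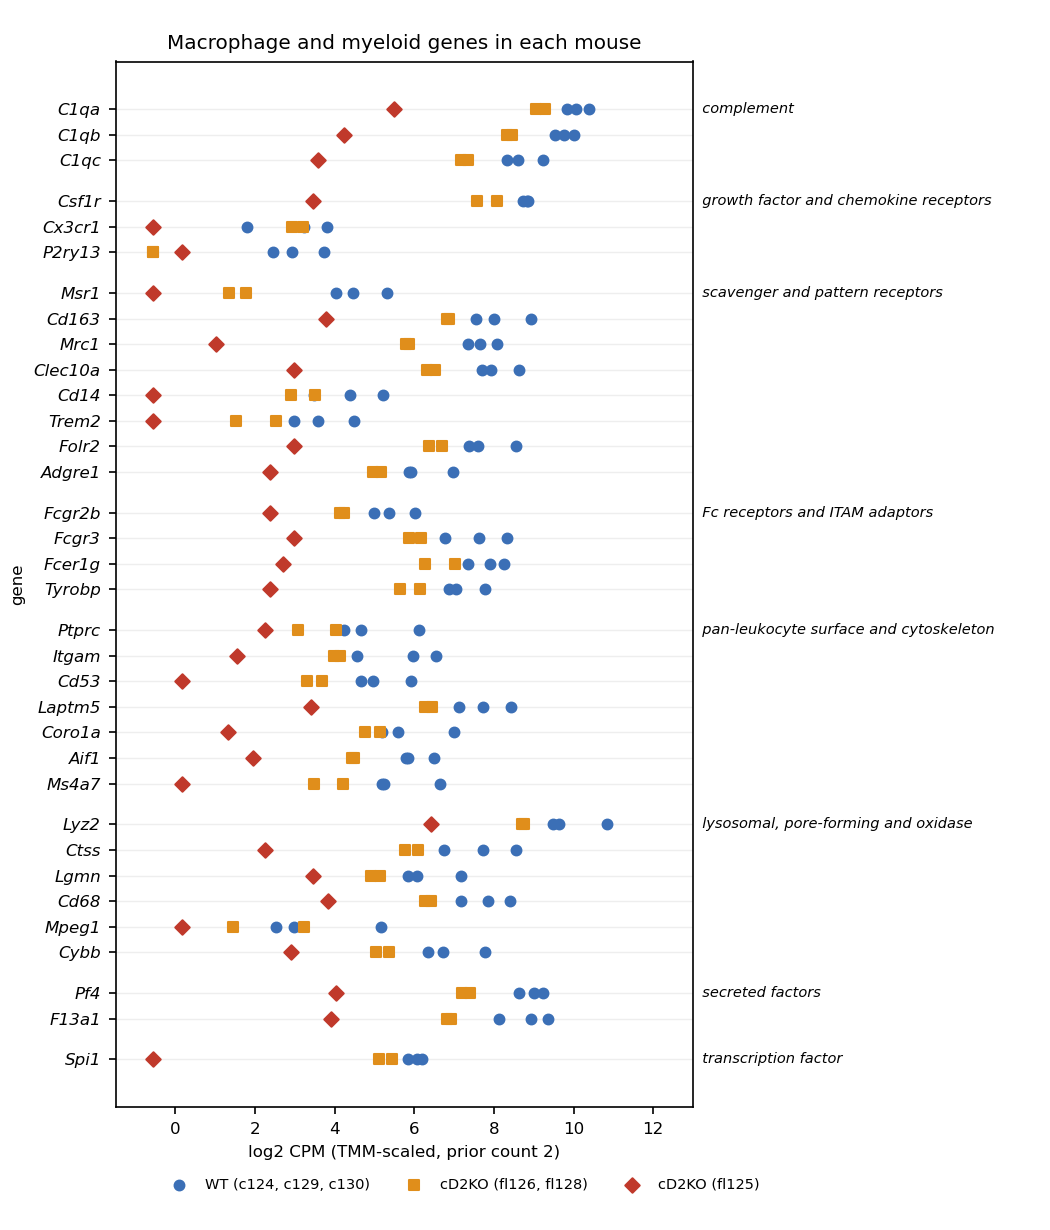
Level of each of the 34 macrophage and myeloid genes in each mouse, in log2 CPM, grouped by role. Blue circles are the WT mice, orange squares fl126 and fl128, and red diamonds fl125. The diamonds lie lowest of the 6 mice for 33 genes, the exception being P2ry13, and for most genes the orange squares lie close together between them and the WT mice.

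Among all 11633 genes tested with edgeR's quasi-likelihood test, 6.62% fell in cD2KO and 5.34% rose at an unadjusted p under 0.05, the line the study drew. Of the 34 members, 15 fell by this test, 0 rose, and the fitted log2 fold change (cD2KO minus WT) was negative for every one. The median of these fold changes was -1.99, beside -0.02 over all genes tested. At an adjusted p under 0.1, which 0.49% of all genes met on the lower side, 2 members were lower, Msr1 and P2ry13, and at an adjusted p under 0.05 the count was 0. All 3 cD2KO mice lay below every WT mouse for 31 members, against 10% of all genes tested. Cx3cr1, Cd14 and Mpeg1 were the members whose groups overlapped. The count of called members moved with the test, from 15 in edgeR with robust estimation to 32 in edgeR without it, 24 in DESeq2 and 32 in limma voom. Of all genes tested, these 4 fits called 6.62%, 7.09%, 5.89% and 6.58% lower. All 34 members passed the expression minimum, although P2ry13, Msr1 and Trem2 had a mean normalized count of at most 10 in cD2KO and passed through their WT level.

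Leaving out fl125 changed the count of calls. Without fl125, 31 members were lower at an unadjusted p under 0.05, against 7.43% of the 11769 genes then tested, and for 24 the adjusted p was also under 0.1, against 1.89%. The members that did not pass without fl125 were Cx3cr1, Coro1a and Mpeg1. The median log2 fold change of all 34 was then -1.48, nearer to 0 than with fl125. Of the 15 members called with all mice, Msr1, Fcgr2b, Itgam, Cd53, Aif1, Lgmn and Cybb were called whichever single mouse was left out. Adgre1 and Pf4 lost the call without any mouse other than fl125, Cd68 without c129, c130, fl126 or fl128, F13a1 without c129, c130 or fl128, Ms4a7 without c129 or fl126, Trem2 without c129 and Ptprc without fl128, while P2ry13 did not pass the filter on low counts without c124. Without the WT mouse c129, which was the highest of the 6 mice for 33 members, 9 were lower, against 3.46% of all genes then tested. With fl125 and c129 both left out, 28 were lower, against 6.41%, a choice made after the data had been seen.

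**Figure D2:**
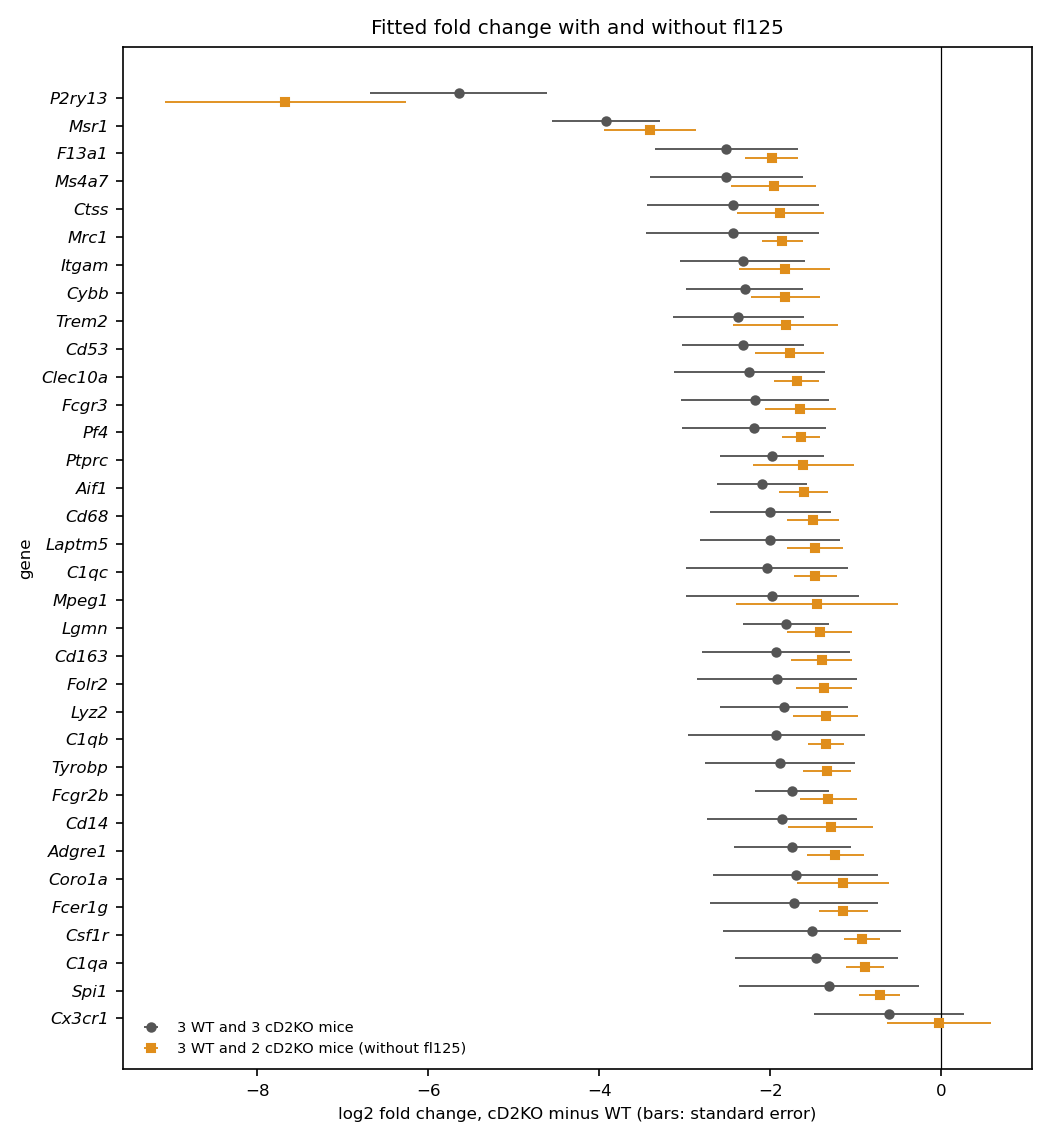
Fitted log2 fold change (cD2KO minus WT) of each gene with its standard error (SE), for all 6 mice (grey circles) and without fl125 (orange squares). Without fl125 the values lie nearer to 0 for 33 genes and their bars are shorter, while P2ry13, with no counts in the remaining cD2KO mice, moved away from 0.

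A member was taken to fall evenly when all 3 cD2KO mice lay below every WT mouse and differed among themselves by at most 1 on the log2 CPM scale, computed with a prior count of 2. Of all genes tested, 6.87% met this rule. Among the 34 members 1 did, P2ry13, and its 3 cD2KO libraries held 1, 0 and 0 counts, so that its evenness is that of values at the floor. It was lost with a prior count of 0.5 in place of 2 on the log scale, and without c124, when P2ry13 no longer passed the expression minimum. Among the other 33 members, the narrowest spread of the cD2KO mice was 1.68 on the log2 scale for Lgmn, followed by Ptprc at 1.79 and Fcgr2b at 1.85. The widest was 6.02, for Spi1, which had 0 counts in fl125, so that its value there was set by the prior count. The CPM of fl126 and fl128, without a prior count, lay within 2-fold of each other for 31 members, all but Trem2, Ptprc and Mpeg1, and for 89.2% of all genes tested, so that this closeness was near the background. Without fl125, both other cD2KO mice lay below every WT mouse for 31 members, against 16.4% of all genes then tested, and 30 met the rule on the log2 scale, against 15.2%. The exceptions were Cx3cr1, Cd14 and Mpeg1, which did not lie below every WT mouse, and Trem2.

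**Figure D3:**
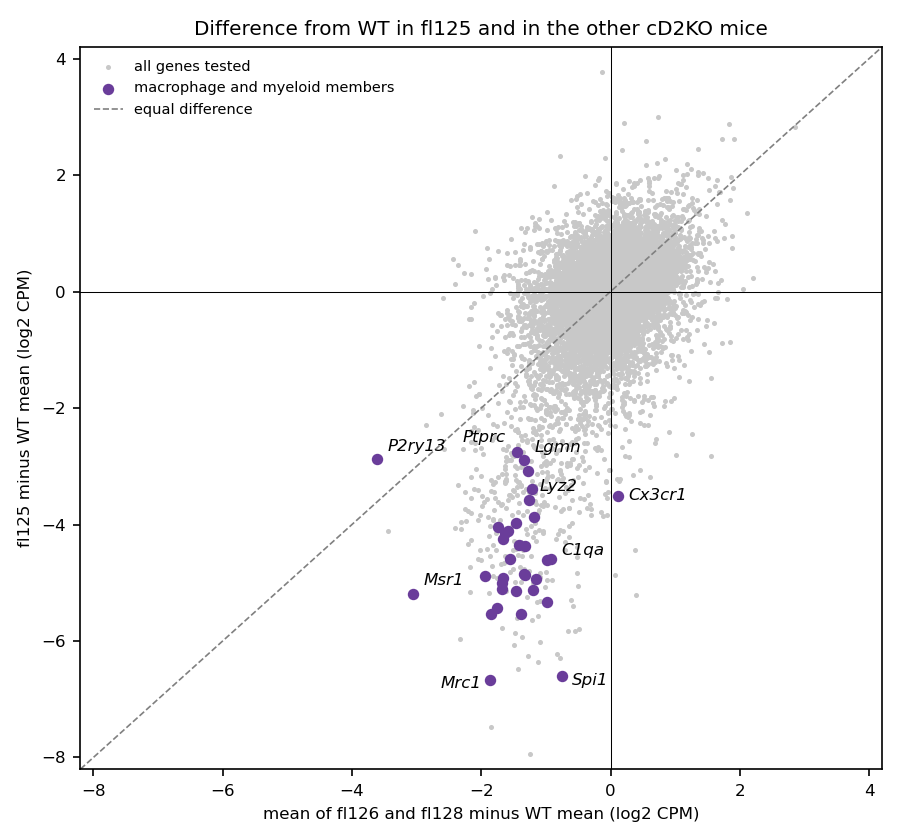
Difference from the WT mean in fl125 (vertical axis) against the mean difference of fl126 and fl128 (horizontal axis), in log2 CPM, for all genes tested (grey) and the 34 macrophage and myeloid genes (purple). The purple points lie below the dashed line of equal difference, at a median of -4.61 in fl125 and -1.43 in the other cD2KO mice, except P2ry13, which lies above it.

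P2ry13 and Msr1 had the smallest p of the members, followed by Fcgr2b and Aif1, and the promoters of these genes are shown where the RefSeq table (build GRCm38.p6) held them. P2ry13 (ENSMUSG00000036362) lies on the minus strand of mm10 chromosome 3 from 59207892 to 59210882, overlapping Med12l on the opposite strand. Fcgr2b lies on the minus strand of chromosome 1 from 170958617 to 170976547, and Aif1 on the minus strand of chromosome 17 from 35170991 to 35176068. Msr1 (ENSMUSG00000025044) lies on the minus strand of chromosome 8 from 39581685 to 39642673. The windows run from 250 bases before to 50 bases after the start of transcription, at chr3:59210833-59211132, chr1:170976022-170976321 and chr17:35176003-35176302, each read 5′ to 3′ on the minus strand, with matches to the motifs searched in capitals.
P2ry13: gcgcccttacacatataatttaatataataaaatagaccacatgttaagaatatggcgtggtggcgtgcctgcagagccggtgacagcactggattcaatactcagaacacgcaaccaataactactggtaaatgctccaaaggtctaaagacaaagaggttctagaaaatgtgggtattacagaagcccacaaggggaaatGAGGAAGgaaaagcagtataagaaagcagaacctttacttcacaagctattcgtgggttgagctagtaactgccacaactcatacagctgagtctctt
Fcgr2b: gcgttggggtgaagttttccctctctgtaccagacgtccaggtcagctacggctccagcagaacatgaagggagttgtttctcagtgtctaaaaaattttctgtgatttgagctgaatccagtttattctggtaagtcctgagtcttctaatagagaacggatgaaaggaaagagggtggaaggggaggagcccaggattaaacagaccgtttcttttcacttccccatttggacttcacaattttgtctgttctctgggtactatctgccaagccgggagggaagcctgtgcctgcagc
Aif1: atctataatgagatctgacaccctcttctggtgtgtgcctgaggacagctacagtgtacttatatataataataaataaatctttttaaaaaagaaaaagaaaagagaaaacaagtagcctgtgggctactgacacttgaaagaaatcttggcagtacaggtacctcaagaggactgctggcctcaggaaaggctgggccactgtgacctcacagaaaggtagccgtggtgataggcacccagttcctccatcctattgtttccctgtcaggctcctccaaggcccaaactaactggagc
Both strands were searched for GAGGAAG, letters that PU.1 is known to bind, and for TGANTCA, letters that AP-1 is known to bind. The P2ry13 window held 1 match to GAGGAAG, whose first base is at -48 from the start, and the windows of Fcgr2b and Aif1 held none to either. Of the 34 members, 26 had at least 1 promoter in the table, 33 promoters in all, and 13 of these, from 11 members, held GAGGAAG. That is 39.4%, beside 13.6% of all 32851 promoters of the same length. TGANTCA was in 15.2% of the member promoters and 7.81% of all promoters. These matches describe the letters of the windows, and binding was not measured.

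Complement C1q is a protein of the classical complement pathway built from the A, B and C chains, which resident macrophages secrete. C1qa was at 910, 1339 and 1062 CPM in c124, c129 and c130, and at 44.4, 537 and 618 CPM in fl125, fl126 and fl128. C1qb was at 742, 1024 and 871 CPM in the same WT mice, and at 18.1, 320 and 350 CPM in the cD2KO mice. C1qc was at 324, 604 and 388 CPM in WT, and at 11.3, 163 and 144 CPM in cD2KO. The 3 chains were below every WT mouse in each cD2KO mouse. Yet none was called with all 6 mice in edgeR with robust estimation, where the edgeR adjusted p lay at 0.507 or higher. Without fl125 all 3 were, with log2 fold changes of -0.89 for C1qa, -1.35 for C1qb and -1.47 for C1qc. Their adjusted p were then 0.0446, 0.00733 and 0.0106 in edgeR's test.

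Csf1r, the receptor through which macrophages receive their survival signal, had the most even WT level of the members with high counts, at 421, 463 and 459 CPM. It was at 10.4 CPM in fl125, 190 CPM in fl126 and 268 CPM in fl128. The fitted log2 fold change was -1.51 (SE 1.04, adjusted p = 0.664 by edgeR) with all mice and -0.92 (SE 0.21, adjusted p = 0.0323 by edgeR) without fl125. Csf1r overlaps Hmgxb3 on the opposite strand.

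Cx3cr1, the receptor of the chemokine fractalkine, was the member with the smallest fitted change. Its levels were 2.82, 13.3 and 8.65 CPM in WT and 0, 8.55 and 6.91 CPM in cD2KO, so that fl126 and fl128 lay inside the WT range. Its log2 fold change of -0.62 (SE 0.88) went to -0.03 without fl125 and to 0.49 with c129 also left out. The annotated gene overlaps 9 other counted genes, and its counts, at most 36 in a library, are uncertain.

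P2ry13 encodes a receptor for adenosine diphosphate on macrophages and microglia. It had 49, 19 and 14 counts in WT, or 12.5, 7.01 and 4.85 CPM, and 1, 0 and 0 counts in cD2KO. The groups are separated, and P2ry13 is the member for which fl125 was not the lowest mouse. Its log2 fold change of -5.64 (SE 1.03, adjusted p = 0.0885 by edgeR) rests on that 1 count. Pooled over the mice of each group, 1 count in cD2KO against 82 in WT gives a WT level 71.8-fold that of cD2KO, with a 95% interval of 12.5 to 2868 that covers counting error only. Low depth and the overlap with Med12l limit this value.

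Scavenger and pattern receptors bind modified lipids, hemoglobin complexes, sugars and dying cells. Of these, 3 of 8 were lower at an unadjusted p under 0.05 with all mice, against 6.62% of all genes tested. Without fl125, 8 of 8 were lower, against 7.43%. Msr1, the class A scavenger receptor, was at 15.9, 39.5 and 21.5 CPM in WT, and at 0, 2.74 and 1.88 CPM in cD2KO. Its counts in cD2KO were 0, 8 and 6, and its log2 fold change of -3.92 (SE 0.63, adjusted p = 0.0885 by edgeR) was near to its value without fl125, -3.41 (SE 0.54, adjusted p = 0.00733 by edgeR). Msr1 was thus at 10.7% and 7.36% of its WT mean in fl126 and fl128, where the median member was near 33%.

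Trem2, a lipid receptor that signals through the adaptor Tyrobp, was at 7.17, 21.8 and 11.4 CPM in WT and at 0, 5.13 and 2.198 CPM in cD2KO. The log2 fold change of Trem2 was -2.37 (SE 0.77, adjusted p = 0.212 by edgeR), from at most 59 counts in a library. Adgre1, which encodes the macrophage marker F4/80, was at 57.4, 124.4 and 59.9 CPM in WT. In cD2KO it was at 4.53, 30.4 and 35.5 CPM, a log2 fold change of -1.74 (SE 0.68, adjusted p = 0.401 by edgeR). Both were below every WT mouse in each cD2KO mouse, and both had fl125 lowest.

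Further receptors of resident macrophages were not called with all 6 mice in edgeR with robust estimation. Cd163, Mrc1 and Clec10a were called with all 6 mice in DESeq2, limma voom and edgeR without robust estimation. Folr2 and Cd14 were called in limma voom and edgeR without robust estimation, but not in DESeq2. The hemoglobin receptor gene Cd163 was at 188, 487 and 255 CPM in WT, and at 13.1, 116 and 112 CPM in cD2KO. Mrc1, the mannose receptor, was at 162, 268 and 201 CPM in WT, and at 1.36, 57.5 and 55.3 CPM in cD2KO, with 3 counts in fl125. The lectin gene Clec10a was at 208, 398 and 244 CPM in WT, and at 7.25, 79.0 and 91.1 CPM in cD2KO. Each of these 3 had fl126 and fl128 at nearly one level, well under WT. Folr2, a folate receptor of tissue-resident macrophages that overlaps Gm10602, was at 167, 377 and 193 CPM in WT, and at 7.25, 81.7 and 103 CPM in cD2KO. The coreceptor for bacterial lipopolysaccharide, Cd14, was at 10.5, 36.5 and 20.4 CPM in WT, and at 0, 6.84 and 10.7 CPM in cD2KO, where fl128 lay above c124. Without fl125 the log2 fold changes of these 5 genes lay between -1.86 for Mrc1 and -1.29 for Cd14, and Mrc1 had the smallest edgeR adjusted p of all members, 0.00161.

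Fc receptors bind antibody and signal through ITAM adaptors. In this group 1 of the 4 genes was lower with all 6 mice, against 6.62% of all genes tested, and 4 of 4 without fl125, against 7.43%. Fcgr2b, the inhibitory receptor for IgG, was at 40.7, 63.9 and 31.2 CPM in WT, and at 4.53, 18.1 and 17.0 CPM in cD2KO. The log2 fold change of Fcgr2b was -1.74 (SE 0.43, adjusted p = 0.124 by edgeR), with fl125 at 10.01% of the WT mean. Fcgr3, an activating receptor for IgG, was at 108, 322 and 197 CPM in WT, and at 7.25, 71.5 and 57.8 CPM in cD2KO. Reads of these related and neighbouring genes may be hard to assign, and Fcgr2b overlaps Gm38204. The adaptor gene Fcer1g was at 162, 303 and 240 CPM in WT, and at 5.89, 75.9 and 129.4 CPM in cD2KO. Tyrobp, the adaptor of Trem2 and many other receptors, was at 117, 220 and 131 CPM in WT, and at 4.53, 48.9 and 70.7 CPM in cD2KO. The log2 fold change of Tyrobp was -1.89 (SE 0.87, adjusted p = 0.4998 by edgeR) with all mice and -1.34 (SE 0.28, adjusted p = 0.0314 by edgeR) without fl125.

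Genes of the leukocyte surface and cytoskeleton are shared by macrophages with other white blood cells. Of these 7, 5 were lower with all mice, against 6.62% of all genes tested. Ptprc, which encodes CD45, the pan-leukocyte phosphatase, was at 18.2, 69.4 and 24.6 CPM in WT and at 4.08, 15.7 and 7.85 CPM in cD2KO. On the log2 scale Ptprc changed by -1.98 (SE 0.60, adjusted p = 0.221 by edgeR). The gap between its groups was narrow, since fl126 reached 15.7 CPM beside 18.2 CPM in c124. Itgam, the integrin CD11b, was at 22.8, 93.4 and 62.0 CPM in WT, and at 2.26, 15.05 and 17.0 CPM in cD2KO. It overlaps Gm49368 on the same strand.

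Cd53, a leukocyte tetraspanin, was at 24.6, 59.8 and 30.5 CPM in WT and at 0.453, 9.23 and 12.2 CPM in cD2KO. Aif1, the actin-bundling protein IBA1, was at 54.5, 89.7 and 57.1 CPM in WT, and at 3.17, 20.9 and 21.7 CPM in cD2KO. Ms4a7, a membrane protein of tissue macrophages, was at 35.8, 100.4 and 37.4 CPM in WT, and at 0.453, 10.6 and 17.9 CPM in cD2KO. Each was called with all 6 mice, with log2 fold changes of -2.32 for Cd53, -2.10 for Aif1 and -2.51 for Ms4a7. Laptm5, a lysosomal membrane protein of leukocytes, was at 140, 347 and 212 CPM in WT, and at 9.96, 86.2 and 76.0 CPM in cD2KO. Coro1a, the actin regulator coronin 1A, was at 36.1, 127 and 47.4 CPM in WT, and at 1.81, 26.3 and 34.5 CPM in cD2KO. Laptm5 and Coro1a were below every WT mouse without being called in edgeR with robust estimation. For Coro1a, which overlaps Bola2, fl128 came close to c124.

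Lysosomal, pore-forming and oxidase genes serve the digestion and killing of what macrophages take up. Lyz2, lysozyme M, was at 711, 1839 and 797 CPM in WT, and at 84.7, 419 and 430 CPM in cD2KO. It had more counts than any other member in fl125, 187, and its log2 fold change was -1.84 (SE 0.75, adjusted p = 0.436 by edgeR). Neutrophils also express Lyz2, and Lyz1 is a near-identical copy with which it may share reads. The protease gene Ctss, for cathepsin S, was at 107, 374 and 211 CPM in WT, and at 4.08, 53.7 and 67.2 CPM in cD2KO. Lgmn, the lysosomal protease legumain, was at 56.3, 145 and 66.8 CPM in WT and at 10.4, 34.9 and 29.5 CPM in cD2KO. Its log2 fold change was -1.82 (SE 0.50, adjusted p = 0.199 by edgeR), and it kept the highest share of its WT level in fl125 among the members, 11.6%.

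Cd68, a glycoprotein of late endosomes, was at 145, 336 and 232 CPM in WT, and at 13.6, 77.0 and 85.7 CPM in cD2KO, a log2 fold change of -1.999 (SE 0.71, adjusted p = 0.380 by edgeR). Cybb, the catalytic subunit of the phagocyte oxidase, was at 80.9, 218 and 105 CPM in WT, and at 6.79, 32.5 and 40.8 CPM in cD2KO. Both were called, and in both the 3 cD2KO mice were well under the lowest WT mouse. Mpeg1, the pore-forming perforin-2, was at 5.12, 35.1 and 7.27 CPM in WT, and at 0.453, 2.05 and 8.79 CPM in cD2KO. The groups overlapped for Mpeg1, fl128 lying above both c124 and c130.

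The secreted factors, a chemokine and a crosslinking enzyme of the coagulation cascade, were both called. Pf4, platelet factor 4, was at 399, 600 and 512 CPM in WT, and at 15.8, 146 and 168 CPM in cD2KO, a log2 fold change of -2.19 (SE 0.84, adjusted p = 0.418 by edgeR). F13a1, the A chain of factor XIII, was at 282, 659 and 486 CPM in WT and at 14.5, 113 and 121 CPM in cD2KO, a log2 fold change of -2.51 (SE 0.83, adjusted p = 0.367 by edgeR). Both are made by platelets as well as macrophages. The defining platelet genes Ppbp, Gp9, Gp1bb and Gp6 had at most 22 counts in any library. The platelet list (0 of 1 tested called) was at 66.3%, 72.0% and 115% of WT in fl125, fl126 and fl128. These sums, 7.25, 7.87 and 12.6 CPM, all lay inside the WT range of 5.54 to 16.2 CPM. F13a1 overlaps Gm49144 and Gm30489.

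Spi1 was at 57.1, 72.4 and 66.5 CPM in WT, the narrowest relative range beside Csf1r, and at 0, 33.9 and 43.0 CPM in cD2KO. The 0 in fl125 allows up to 1.36 CPM, so that the WT mean of 65.3 ± 7.69 CPM (SD, n = 3) was at least 48.1-fold higher. In fl126 and fl128 Spi1 kept 51.8% and 65.9% of the WT mean. Its log2 fold change without fl125 was -0.72 (SE 0.24, adjusted p = 0.142 by edgeR).

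In fl125, 5 members had no count (Cx3cr1, Msr1, Cd14, Trem2 and Spi1), 5 had 1 to 3 counts (P2ry13, Mrc1, Cd53, Ms4a7 and Mpeg1) and 24 had more. The bounds that no count allows make the WT mean at least 18.9-fold higher than fl125 for Msr1, 16.6-fold for Cd14, 9.91-fold for Trem2 and 6.08-fold for Cx3cr1. No member exceeded 11.6% of its WT mean in that library.

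The make-up of the RNA of the 34 members was then compared by expressing each gene as a share of their summed counts. This description was added after the data had been seen. In fl126 and fl128 most shares stayed near those of WT, so that most members stood lower in proportion. P2ry13 and Msr1 departed most on the lower side. Msr1 made up 0.272%, 0.350% and 0.292% of the members' counts in c124, c129 and c130 and 0.0941% and 0.0579% in fl126 and fl128. With counts pooled over fl126 and fl128 and over WT, as for every such ratio here, its share was 0.240 times that of WT. The next, F13a1, had a share 0.657 times that of WT. On the higher side Cx3cr1 had a share 2.58 times, Spi1 1.53 times, C1qa 1.36 times and Csf1r 1.32 times that of WT. These are the members whose levels in fl126 and fl128 were nearest to WT. The Csf1r shares of the groups overlapped, at 7.22%, 4.11% and 6.24% in c124, c129 and c130. In fl126 and fl128 they were 6.55% and 8.24%.

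In fl125 the mixture differed, although 691 counts in all leave wide intervals. Lyz2 made up 27.1% of the members' counts there, against 10.8% to 16.3% in the WT mice and 13.2% to 14.4% in fl126 and fl128. Lgmn had a share 3.08 times, Ptprc 2.94 times and Fcgr2b 2.56 times that of WT, while Mrc1 had 0.167 times. With no count of 691, Spi1 had a share of up to 0.532% (95% exact binomial interval), under the 0.642% of the lowest WT mouse.

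**Figure D4:**
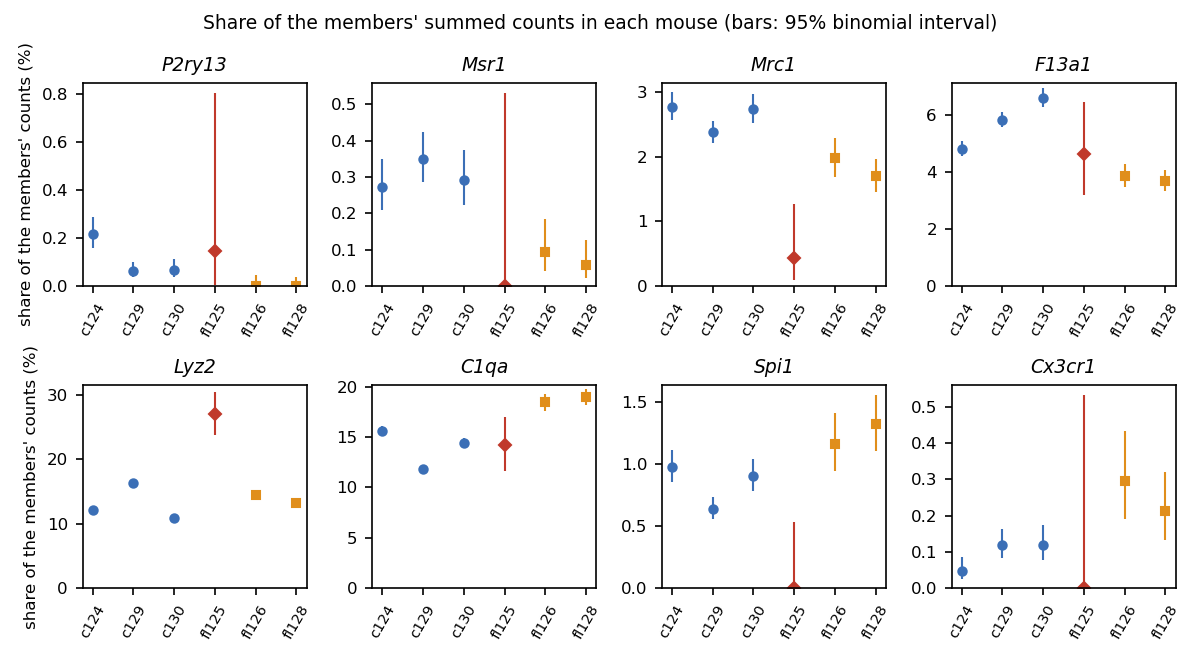
Share of the members' summed counts taken by 8 genes in each mouse, in percent, with 95% exact binomial intervals that cover counting error only. P2ry13 and Msr1 took smaller shares in fl126 and fl128 than in WT, Cx3cr1, Spi1 and C1qa larger ones, and in fl125 Lyz2 took 27.1%.

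Other genes of the lineage were also lower. On a separate list of 70 other myeloid genes, 64 were tested. Of these, 47 fell and 0 rose by the unadjusted test, against 6.62% and 5.34% of all genes tested. The adjusted p of the fall was under 0.1 for 3 and under 0.05 for 0. Without fl125, 50 of 67 fell by the unadjusted test, against 7.43% of all genes then tested. Dab2, an endocytic adaptor, was at 204, 219 and 252 CPM in WT and at 27.6, 79.7 and 80.1 CPM in cD2KO (edgeR adjusted p = 0.0885). Csf2ra, the receptor chain for GM-CSF, and Btk, a tyrosine kinase of myeloid and B cells, also had small p, with log2 fold changes of -1.75 and -2.95. Maf, Ctsz and Apoe were among the genes of this list that fell evenly in all 3 cD2KO mice and were called. Maf was at 749, 926 and 739 CPM in WT and at 572, 494 and 520 CPM in cD2KO. Ctsz was at 115, 162 and 147 CPM in WT and at 85.6, 77.0 and 76.6 CPM in cD2KO, and Apoe, the lipid carrier, was at 1954, 2694 and 1920 CPM in WT and at 923, 1349 and 1552 CPM in cD2KO. Maf, Ctsz and Apoe are expressed by many cell types besides macrophages, and in fl125 they stood at 71.1%, 60.5% and 42.2% of their WT means, where no member of the set exceeded 11.6%.

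On the CSF1 receptor pathway, which holds its ligands, adaptors and kinases, 4 of 15 tested genes were lower and 0 higher. Of all genes tested, 6.62% were lower and 5.34% higher. Inpp5d, the leukocyte phosphatase SHIP1, had a fitted value of -2.08 on the log2 scale (SE 0.59, adjusted p = 0.165 by edgeR). Sh3bp2, Ptpn6 and Pik3cg, all signaling proteins of blood cells, had log2 fold changes of -2.14, -1.74 and -2.50. The sum of the list was at 77.4%, 87.1% and 89.2% of WT in fl125, fl126 and fl128, a far smaller difference than for the members, and most of its genes are expressed widely.

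Markers of other blood cells were read beside the members. The shares of all genes tested, 6.62% lower and 5.34% higher, apply to these counts and to those of the other cell types below. Neutrophil markers (0 of 8 tested lower, 0 higher) summed to 18.7% of WT in fl125 but to 112% and 105% in fl126 and fl128. S100a8 was at 1137 counts in c129 against 324 and 232 in the other WT mice, so that c129 also held most neutrophil RNA among the WT mice. Erythroid markers (0 of 5 lower, 0 higher) summed to 25.8% of WT in fl125 and to 96.99% and 168% in fl126 and fl128. NK cell markers (0 of 3 tested lower, 0 higher) had no count in fl125 for all 6 genes, and 160% and 86.2% of the WT sum in the other cD2KO mice. Mast cell markers (0 of 1 tested) had no count in fl125 for all 7 genes, and T cell markers (0 of 1 tested) stood at 17.8%, 77.4% and 148% of WT. In fl125, then, the marker sums of neutrophils, erythroid, NK, mast, T and B cells were all at 25.8% of WT or less. The dendritic and platelet sums stood higher in fl125, at 54.2% and 66.3%, on 34 and 16 counts. At 7.25 CPM, the platelet sum of fl125 lay inside the WT range of 5.54 to 16.2 CPM. The dendritic sum of fl125, 15.4 CPM, lay between those of fl128 and fl126, 13.8 and 17.8 CPM. Some of these sums rest on few counts. T cell markers had 8 counts in fl125 against 67, 84 and 37 in c124, c129 and c130, and mast cell markers 0 against 61, 109 and 61. In fl126 and fl128 the neutrophil sums lay inside the WT range, as did the erythroid sum of fl126, and that of fl128 lay above it. The part of this wider difference in the levels of the 34 genes in fl125 was not tested.

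B cell markers summed to 18.4%, 51.7% and 42.1% of WT in fl125, fl126 and fl128, with Ighm lower (1 of 2 tested), and Cd79a at 0 in all mice. Dendritic cell markers summed to 54.2%, 62.6% and 48.6%, with Siglech lower (1 of 2 tested). Flt3, Xcr1 and Clec9a, which define dendritic cells, were at 0 in at least 5 of the 6 libraries, and Cd5 and Ms4a2, of T and mast cells, at 0 in all.

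Of markers of muscle and vessel cells, muscle stem cell genes summed to 161%, 118% and 97.03% of WT in fl125, fl126 and fl128, and c129, the WT mouse with the most myeloid RNA, had their lowest sum, 1620 CPM against 2189 and 2209 CPM in the other WT mice. Of 12 tested, Itga7, Cdh15 and Myf5 were higher and Cxcr4, a chemokine receptor that leukocytes share, was lower. Endothelial markers were lower for 6 of 9 tested genes, against 6.62% of all genes tested, with Flt1, Kdr, Cldn5 and Pecam1 the smallest in p. They summed to 68.0%, 67.3% and 83.6% of WT. Mural markers were higher for 3 of 8, Tagln, Myh11 and Acta2, against 5.34% of all genes tested, and summed to 153%, 163% and 222%. Of fibroadipogenic markers Gsn and Lum were lower (2 of 7) and the sums stood at 42.5%, 73.8% and 101% of WT. In the endothelial and mural sums fl125 did not stand apart from the other cD2KO mice. Whether the mixture of sorted cells bears on the members was not tested.

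**Figure D5:**
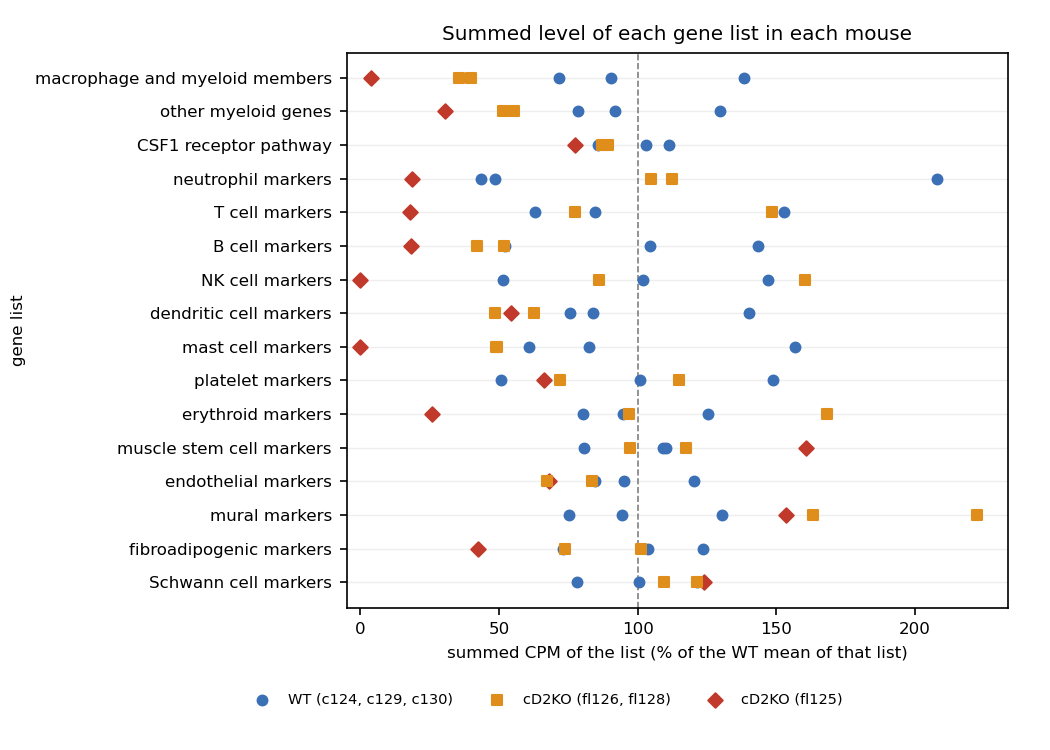
Summed CPM of each gene list in each mouse as a percentage of the WT mean of that list (dashed line at 100%). For the macrophage and myeloid genes fl125 is at 3.84% and fl126 and fl128 at 35.7% and 39.9%, whereas for neutrophil and erythroid markers fl125 alone lies below the WT mice.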

How the data were processed

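RNA of qMuSCs from 3 WT and 3 cD2KO mice was sequenced with 1 library per mouse by a digital RNA-seq service. The authors aligned the reads to mm10 and deposited raw counts per gene without normalization, and the submitters' processing notes name bcl2fastq, STAR 2.6.0a and HTSeq 0.9.1. Which annotation was counted, whether strand was used and how PCR duplicates were treated is not given in the sources used here, so reads of overlapping genes are uncertain and intervals cover counting error only. Of 31053 gene identifiers, 31011 were found in GENCODE M21, which gave symbols and coordinates. Libraries of a group differed by far more than sampling noise (chi-square per degree of freedom of 8.24 or more).

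Genes with a mean DESeq2-normalized count above 10, the study's minimum, were compared in edgeR 4.0.16 under R 4.3.3 by its quasi-likelihood test (robust, TMM scaling, no covariate), with Benjamini-Hochberg adjustment over all 11633 genes tested. CPM used TMM-scaled library sizes, and log2 CPM a prior count of 2. Levels were compared within a gene, since length was not corrected for. The alternatives were DESeq2 1.42.0, limma 3.58.1 (voom), other scalings, other minimums, non-robust estimation, other limits on evenness and leaving out mice. The pipeline was first tested on simulated data. No columns of other samples were present.

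The members, lists and tests were chosen with earlier results of these data known. All 34 members were named. Of each other list the up to 4 called genes with the smallest p and defining genes at 0 were named, and of genes on no list the 5 whose centred log2 CPM profile lay nearest to the mean profile of the members. Maf, Ctsz, Apoe, S100a8, Pax7 and the platelet genes were named after their values were seen. Some genes that these rules would name are not reported here. Promoters were read for the 4 members with the smallest p. Clec7a, on the list of other myeloid genes, matched no counted gene.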

Additional observations from a re-analysis of the deposited data

How the results depend on the processing

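Over the 16 settings that fitted single members again, 536 of 537 fitted log2 fold changes were negative, whatever the scaling. The exception was Cx3cr1 at 0.49 with fl125 and c129 both left out. These settings reuse the same 6 libraries and are not independent of each other. The count of members called lower, 15, was 24 in DESeq2, 32 in limma voom, 32 without robust estimation, 28 with fl125 and c129 both left out (a choice made after the data had been seen), 2 when called at an adjusted p under 0.1 and 0 at 0.05, and ranged from 9 (without c129) to 31 (without fl125) with single mice left out. Members called higher were 0 throughout. The count of members falling evenly, 1, was 0 with a minimum mean of 50, with a prior count of 0.5 and with a limit of 0.5 in place of 1. With single mice left out it ranged from 0 (without c124) to 30 (without fl125, against 15.2% of all genes then tested), and was 2 without fl126. It was 30 with fl125 and c129 both left out, where fewer mice make separation easier. The share of all genes falling evenly was not computed for that setting or for the other mice left out. The count of other myeloid genes called lower, 47, was 25 with a minimum mean of 50, 3 when called at an adjusted p under 0.1 and 0 at 0.05, and 33 to 50 with single mice left out. A higher minimum leaves fewer genes to test, and the cause of the other shifts was not tested. With single mice left out the median log2 fold change of the members stayed between -2.40 and -1.48, and the count below every WT mouse between 31 and 33. The median was -1.13 with fl125 and c129 both left out, and the count was 28 with a minimum mean of 50. The share of all genes below every WT mouse was 10% with all mice and 16.4% without fl125, and was not computed for the other settings. No paired analysis was possible because the labels give no replicate numbers that link WT with cD2KO mice. Counts of 3 or fewer, found for 10 members in fl125, cannot be told apart from 0.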

Other observations

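Of the genes on no list, 5 had profiles over the 6 mice nearest to the mean centred log2 CPM profile of the 34 members. They were Arhgap45 at a root mean square distance of 0.15 on the log2 scale, Cfp, which encodes the complement factor properdin, at 0.16, Lrrc25 at 0.19, the phosphatase gene Ptpn18 at 0.21 and Rgs10, a regulator of G protein signaling, at 0.21. Arhgap45 was at 24.1, 64.6 and 38.8 CPM in c124, c129 and c130 and at 1.36, 12.7 and 17.0 CPM in fl125, fl126 and fl128. Cfp was at 141, 338 and 212 CPM in the same WT mice and at 10.4, 94.1 and 98.9 CPM in the cD2KO mice. Both showed the order seen for the members, with c129 highest, fl126 and fl128 close together and fl125 lowest. That order follows from how the 5 genes were chosen and is not a separate result. The likeness was measured over 6 mice and is a description of these libraries.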
